A study of Mus musculus with 32 samples.

Results

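The genes described here encode Paneth cell alpha-defensins and other antimicrobial proteins secreted by the small intestinal epithelium. They were taken by name from the duodenum, jejunum and ileum tables of the study: Defa2, Reg1 and Zg16, plus every other gene whose symbol starts with Defa or Reg3. The rule found 17 genes among the 7152 that at least 1 of the 3 intestinal tables lists, namely 9 alpha-defensin coding genes, 2 defensin pseudogenes, 4 Reg3 genes, Reg1 and Zg16. Of these, 7 are listed in the duodenum, 10 in the jejunum and 11 in the ileum. Defa21 and Defa22 are the 2 that occur in all 3 tables. Each table lists only genes with an unadjusted p-value below 0.05 in the authors' own test, so the 28 annotated symbols of the rule that occur in no intestinal table were not analysed here, and a gene missing from 1 segment's table cannot be read as absent or unaltered there.

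Alpha-defensins, called cryptdins in the mouse, are short cationic peptides that Paneth cells at the base of the crypts store in granules and release into the lumen, where they kill bacteria and shape the resident flora. The Reg3 proteins are secreted C-type lectins of enterocytes and Paneth cells; Reg3g and Reg3b bind bacterial surfaces and are known targets of microbial and cytokine signals. Zg16 is a goblet cell lectin that binds Gram-positive bacteria in the mucus, and Reg1 is a related lectin of the regenerating family made in the pancreas and the proximal gut.

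Poly(A) RNA was sequenced from the liver and 3 intestinal segments of male mice, either wild type (WT) or lacking Khk (Khk KO), with 4 libraries per genotype in each organ. Khk encodes ketohexokinase, which phosphorylates fructose on its entry into metabolism, and the series was set up around its place in iron handling. The 24 intestinal libraries are used here, and the liver was not used. The labels give no age, strain, diet, housing or type of Khk allele, and do not say whether the organs, or libraries with the same replicate number, came from the same mice, so p-values measure the spread between these libraries. In whole-segment RNA, fewer Paneth or goblet cells and less RNA per cell cannot be told apart.

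Khk itself was lower in the Khk KO libraries of every segment, at 4.59% of the WT mean in the duodenum, 9.25% in the jejunum and 6.65% in the ileum, with no overlap between genotypes. The edgeR adjusted p-values of Khk were 0.00438, 0.00914 and 3.01e-04. The FPKM values imply library totals between 14797693 and 29475414. WT replicate 1 stood apart in all 3 segments. It had the highest Khk level, and in the ileum its genes near 400 bases in length lay 0.98 above the mean of all libraries on the log2 scale, against 0.03 to 0.24 in the other WT libraries. In each segment short genes were lower and long genes higher in Khk KO: near 400 bases the fitted difference was -0.34 in the duodenum, -0.38 in the jejunum and -0.66 in the ileum, and near 8000 bases it was 0.24, 0.36 and 0.46. Near 1000 bases it was -0.46, -0.50 and -0.57, so in the duodenum and jejunum it was larger there than near 400 bases. This trend was fitted over genes that the tables list for a low p-value. The defensin coding genes have listed lengths between 375 and 508 bases, and the Reg genes and Zg16 between 782 and 2114. The results the text turns on are therefore given below with and without the length trend, and without WT replicate 1 where that library bears on it.

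All 11 defensin members lie in 1 cluster on chromosome 8, between chr8:21025545-21026516 (Defa21) and chr8:21695012-21695853 (Defa-ps1), and their positions equal the GENCODE M21 annotation of GRCm38. Their sequences are shown because they set which of these genes a short read can separate. The coding sequences below are from GENCODE M21 transcripts, 5′ to 3′, with capitals at aligned positions that differ from Defa21.
Defa21: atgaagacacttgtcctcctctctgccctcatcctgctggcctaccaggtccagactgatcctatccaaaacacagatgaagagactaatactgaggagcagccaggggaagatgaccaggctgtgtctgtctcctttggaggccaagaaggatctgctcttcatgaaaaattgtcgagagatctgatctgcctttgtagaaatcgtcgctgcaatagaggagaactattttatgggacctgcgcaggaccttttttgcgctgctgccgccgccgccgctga
Defa22: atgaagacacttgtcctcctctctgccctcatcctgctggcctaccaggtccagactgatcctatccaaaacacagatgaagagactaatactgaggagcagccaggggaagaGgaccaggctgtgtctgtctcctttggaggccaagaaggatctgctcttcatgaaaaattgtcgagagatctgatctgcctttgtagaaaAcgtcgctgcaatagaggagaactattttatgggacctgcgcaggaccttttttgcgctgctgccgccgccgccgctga
Defa2: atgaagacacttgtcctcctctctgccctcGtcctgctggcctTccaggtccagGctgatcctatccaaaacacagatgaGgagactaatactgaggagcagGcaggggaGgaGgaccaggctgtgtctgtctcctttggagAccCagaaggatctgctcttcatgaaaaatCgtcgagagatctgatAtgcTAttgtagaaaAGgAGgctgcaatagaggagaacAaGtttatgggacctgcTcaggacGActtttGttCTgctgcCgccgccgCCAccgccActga
Defa37: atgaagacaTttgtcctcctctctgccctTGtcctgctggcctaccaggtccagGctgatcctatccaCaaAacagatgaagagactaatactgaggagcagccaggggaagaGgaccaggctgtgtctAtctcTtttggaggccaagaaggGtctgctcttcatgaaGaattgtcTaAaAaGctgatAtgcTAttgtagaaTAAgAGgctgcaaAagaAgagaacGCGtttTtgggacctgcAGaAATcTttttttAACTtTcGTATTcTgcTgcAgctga

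Defa22 differed from Defa21 at 2 positions (99.3% identity), Defa2 at 30 and Defa37 at 48. The coding sequence of Defa37 was identical to that of Defa36, and Defa2 and Defa20 were 99.7% identical. Of all 100-base stretches of its annotated transcripts, Defa2 and Defa37 shared 100% with at least 1 other gene, Defa20 99.7%, Defa36 94.7%, Defa5 88.1% and Defa34 75.0%. For Defa21 and Defa22 the shares were 40.4% and 40.3%, each with the other, and for Defa29 11%. The 4 Reg3 genes, Reg1 and Zg16 shared none. How the authors assigned reads that match several genes is not given in the sources used here. Values of Defa2, Defa5, Defa20, Defa34, Defa36 and Defa37 are therefore uncertain as to the gene. Of 50-base stretches, Defa21 shared 72.9%, Defa22 74.9% and Defa29 43.4% with at least 1 other gene. Their values are thus uncertain in part, and Defa21 and Defa22 may not be fully separate measurements. Counts of members by direction below therefore do not count separate cases where they include several defensins.

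Promoters of Defa21, Defa37, Reg3g and Reg3b are shown next, with 250 bases before and 50 after the RefSeq transcription start on GRCm38.p6. Defa21 and Defa37 were both lower on average in the duodenum and ileum, and Reg3g and Reg3b in the jejunum. Capitals mark matches, on either strand, to the TATA box TATAAA, to the TCF/LEF motif ATCAAAG, through which Wnt signals act, and to the STAT motif TTCNNNGAA; the marked matches do not overlap.
Defa21 (chr8:21025295-21025594, plus strand): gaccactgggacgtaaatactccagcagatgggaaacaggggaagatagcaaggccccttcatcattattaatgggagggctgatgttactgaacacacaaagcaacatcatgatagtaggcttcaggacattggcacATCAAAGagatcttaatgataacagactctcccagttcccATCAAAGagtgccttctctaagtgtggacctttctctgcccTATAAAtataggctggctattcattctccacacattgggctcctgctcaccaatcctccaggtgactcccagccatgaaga
Defa37 (chr8:21565136-21565435, plus strand): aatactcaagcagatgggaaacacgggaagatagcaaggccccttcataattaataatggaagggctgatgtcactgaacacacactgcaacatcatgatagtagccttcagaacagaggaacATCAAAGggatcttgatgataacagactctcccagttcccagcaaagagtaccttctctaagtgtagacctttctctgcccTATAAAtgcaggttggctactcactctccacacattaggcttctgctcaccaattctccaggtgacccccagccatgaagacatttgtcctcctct
Reg3g (chr6:78468825-78469124, minus strand): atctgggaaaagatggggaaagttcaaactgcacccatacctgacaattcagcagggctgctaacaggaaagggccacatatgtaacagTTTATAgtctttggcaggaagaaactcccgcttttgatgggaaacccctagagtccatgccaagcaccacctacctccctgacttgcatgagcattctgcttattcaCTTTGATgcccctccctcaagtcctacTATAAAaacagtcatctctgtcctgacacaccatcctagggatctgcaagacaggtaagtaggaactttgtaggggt
Reg3b (chr6:78370635-78370934, plus strand): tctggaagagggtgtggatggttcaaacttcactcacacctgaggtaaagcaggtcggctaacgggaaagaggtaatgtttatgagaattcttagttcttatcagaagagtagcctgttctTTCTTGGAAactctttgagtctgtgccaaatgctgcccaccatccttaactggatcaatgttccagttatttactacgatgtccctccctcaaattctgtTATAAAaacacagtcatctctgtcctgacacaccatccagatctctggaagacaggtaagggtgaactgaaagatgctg

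RefSeq promoters matched 11 of the 17 members. The TCF/LEF motif had 2 matches in each of Defa2, Defa20, Defa21 and Defa22, and 1 match in each of Defa36, Defa37, Reg3a and Reg3g. Of 32851 promoters of the same length, 3.73% hold it. The windows of Defa21 and Defa22 are identical, as are those of Defa2 and Defa20, and of Defa36 and Defa37. Matches in these copies are therefore not separate cases to set against that share. The STAT motif matched in Reg3b and Reg3d and occurs in 8.30% of promoters, and the TATA box occurs in 13.6%. These matches describe letters in the windows and are not evidence of binding.

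In the ileum, all 7 defensin coding genes of the table were lower on average in Khk KO, and Defa21 and Defa22 were the most abundant members. Summed over the 8 defensin genes of the ileum table, the normalised count ranged from 128286 to 183370 in WT and from 67011 to 91922 in Khk KO, so the Khk KO mean was 51.1% of the WT mean and the genotypes did not overlap. These 8 were listed for a low p-value and all were lower on average, so a lower sum follows in part from the listing. Unlisted defensin genes are not in the sum, so it is not the total defensin level. By edgeR's quasi-likelihood test, Defa21, Defa22, Defa29 and Defa2 fell, which is 4 of the 10 members with enough reads to be fitted. Of the 4788 ileal genes fitted, all of them listed for a low p-value, 33.1% were called, 11.3% as lower and 21.8% as higher. The authors' deposited table calls 8 members lower and 1 higher at an adjusted p below 0.05. That test called 2505 genes, which is 15.6% of the 16034 adjusted over (6.86% lower and 8.76% higher). The members come from the 5187 genes listed for a low p-value, so that share is not a like background for them.

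Defa21, the most abundant defensin by FPKM, stood at 76774, 58761, 59066 and 55619 normalised counts in WT replicates 1 to 4 and at 32409, 39187, 34834 and 25662 in Khk KO replicates 1 to 4. All 4 Khk KO libraries lay below all 4 WT libraries, and the highest WT library was replicate 1. The log2 fold change was -0.92 ± 0.19 (SE, n = 4 per genotype; edgeR adjusted p = 0.0167). For its near copy Defa22 the values were 65123, 42094, 61712 and 49425 in WT and 28607, 34263, 34509 and 25687 in Khk KO. Again no library overlapped, with a log2 fold change of -0.83 ± 0.19 (edgeR adjusted p = 0.0269).

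Defa29, a cryptdin-related gene whose coding sequence is the least like the others here, had 10154, 6939, 4059 and 5672 normalised counts in WT and 2066, 3644, 3657 and 2448 in Khk KO. Its log2 fold change was -1.18 ± 0.28 (edgeR adjusted p = 0.0286), and WT replicate 3 lay close above the highest Khk KO libraries. Defa2 had 15958, 16296, 46680 and 7452 in WT against 5504, 7381, 5579 and 5316 in Khk KO. Here WT replicate 3 was far above the other libraries, while the 4 Khk KO libraries were close together. The log2 fold change of Defa2 was -1.86 ± 0.45 (edgeR adjusted p = 0.0312), and without WT replicate 3 it was -1.15 (edgeR adjusted p = 0.0399).

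The other 3 defensin coding genes of the ileum table were lower on average but did not pass edgeR's test. Defa5 averaged 554 ± 155 in WT and 312 ± 89.3 in Khk KO normalised counts (SD, n = 4), Defa34 6578 ± 1321 and 4406 ± 805, and Defa37 3973 ± 1170 and 2649 ± 412. Defa5 and Defa34 did not overlap between genotypes, and Defa37 did. The pseudogene Defa-ps3 was at or near 0 in most libraries, with 17.97 normalised counts in WT replicate 2, and was not fitted.

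**Figure D1:**
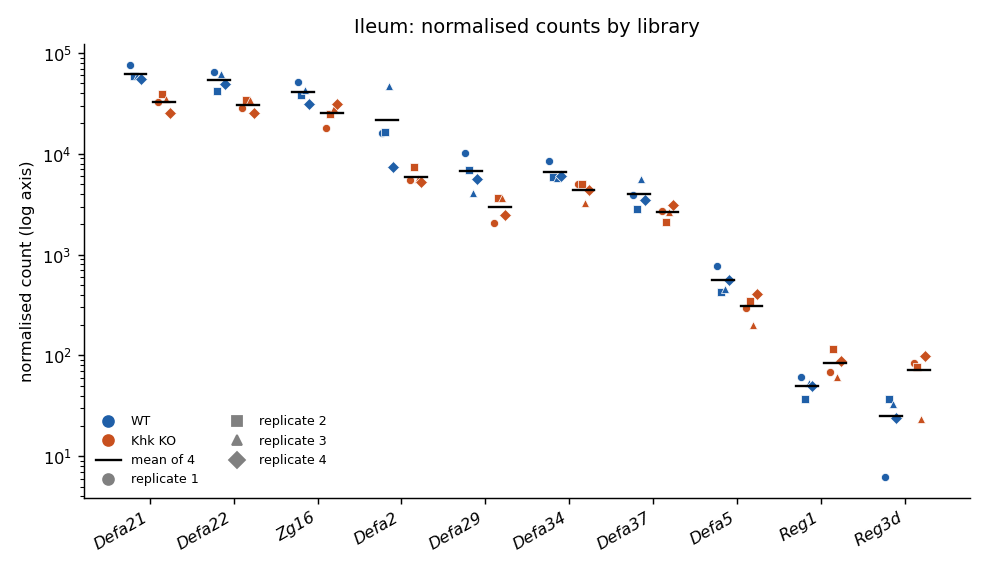
Normalised counts (log axis) of the 10 fitted members in the ileum table, 1 point per library, with replicates marked by shape and black bars at the mean of 4. Defa21, Defa22, Defa29, Defa2, Defa5 and Defa34 show all Khk KO points below all WT points, and Defa2 shows WT replicate 3 far above the other WT points.

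In all, 9 of the 11 ileal members were lower, beside 48.7% of the genes in that table. Zg16 and the 2 Reg genes differed in direction. Zg16 had 51211, 38614, 42990 and 31021 normalised counts in WT and 18240, 24781, 28634 and 31121 in Khk KO, and Khk KO replicate 4 lay just above the lowest WT library. Its log2 fold change of -0.67 ± 0.21 did not pass edgeR's test (adjusted p = 0.0679). Reg3d, a less studied Reg3 gene, had 6.22, 36.8, 33.2 and 23.8 normalised counts in WT and 84.3, 77.5, 23.6 and 98.3 in Khk KO. Khk KO replicate 3 lay among the WT libraries, and the log2 fold change of 1.49 ± 0.52 did not pass (edgeR adjusted p = 0.0866). Reg1 was higher in every Khk KO library than in any WT library, with 61.4 to 116 against 36.8 to 60.9 normalised counts. Its log2 fold change was 0.74 ± 0.28 (edgeR adjusted p = 0.108).

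Ileum genotypes did not overlap for 6 members below WT and 1 above, where 29.9% and 36.9% of all genes in that table show the same. With 4 libraries against 4, an exact two-sided permutation test over 70 splits cannot go below p = 0.0286, which is its value for each of those 7. The ileal calls depended on single libraries: edgeR called 0 members without Khk KO replicate 1 or 4, 1 without Khk KO replicate 2 or 3, 2 without WT replicate 2, 3 without WT replicate 3, and 5 without WT replicate 1 or 4. With the length trend taken out, the log2 fold changes were -0.27 for Defa21, -0.19 for Defa22, -0.49 for Defa29 and -1.30 for Defa2, with edgeR adjusted p-values of 0.903, 1, 0.336 and 0.271, Defa34 and Defa37 turned to 0.09 and 0.02, and Reg1 alone was called, as higher by 1.32 (edgeR adjusted p = 0.0349). In that fit Defa5 was at -0.15, Zg16 at -0.12 and Reg3d at 1.98. Of the 10 members fitted 6 were lower, beside 51.7% of the genes fitted. With the length trend kept but WT replicate 1 left out, Defa21 was at -0.81 and Defa22 at -0.73.

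In the jejunum, all 10 members of the table were lower in Khk KO, against 46.0% of all genes listed there, and their median log2 fold change was -1.12 where that of all genes fitted was 0.26. EdgeR called 0 of the 10, at adjusted p-values between 0.252 and 0.281 and with 10 of 10 at an unadjusted p below 0.05, and it called 0.0489% of the 2045 genes fitted. DESeq2's Wald test called 5. The authors' deposited table calls 4 as lower, namely Reg3g, Reg3b, Zg16 and Defa21 at adjusted p = 9.57e-08, 0.00928, 0.0202 and 0.0394. That test called 75 genes, which is 0.759% of the 9881 adjusted over (0.223% lower and 0.536% higher). The members come from the 2413 genes listed for a low p-value, so here too that share is not a like background.

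Reg3g, a lectin that targets Gram-positive bacteria, had 18163, 11726, 18650 and 19289 normalised counts in WT jejunum and 5586, 8122, 7093 and 5614 in Khk KO. The Khk KO libraries all lay below the WT libraries, of which replicate 2 was the lowest by a wide gap. The log2 fold change was -1.36 ± 0.20 (SE, n = 4 per genotype; edgeR adjusted p = 0.252), and it was -0.93 with the length trend taken out. Its neighbour and relative Reg3b (75.9% identical in coding sequence) had 33854, 17924, 32138 and 25334 in WT and 9060, 12160, 18924 and 10224 in Khk KO. Khk KO replicate 3 lay above WT replicate 2, so the genotypes overlapped, and the log2 fold change was -1.12 ± 0.27, or -0.59 with the length trend taken out.

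Reg3a and Reg3d lie between Reg3b and Reg3g at chr6:78370657-78468872, an interval that also holds Reg1. They had log2 fold changes of -0.50 ± 0.20 and -1.24 ± 0.55, or -0.02 and -0.73 with the length trend taken out, and overlapped between genotypes. Reg3d was scarce, with 13.5 to 37.9 normalised counts in WT and 6.0 to 20.1 in Khk KO. Summed over the 4 Reg3 genes, the level was 31801 to 54556 in WT and 15807 to 28151 in Khk KO, or 44.7% of the WT mean. Zg16 (chr7:127050156-127087328) had 60418, 45255, 36952 and 37638 normalised counts in WT and 23798, 28486, 30059 and 24122 in Khk KO. The genotypes did not overlap, and its log2 fold change of -0.76 ± 0.19 was -0.59 without WT replicate 1 and -0.23 with the length trend taken out.

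Among the 5 jejunal defensins, Defa21 had 471, 923, 567 and 1242 normalised counts in WT and 436, 367, 388 and 193 in Khk KO. The genotypes did not overlap, although WT replicate 1 was close to Khk KO replicate 1, and the log2 fold change was -1.21 ± 0.34, or -0.90 with the length trend taken out. Defa22, Defa29 and Defa34 had log2 fold changes between -1.13 and -0.97 and overlapped between genotypes. With the length trend taken out these lay between -0.82 and -0.63. Defa2 had 33.5, 314, 46.8 and 474 in WT and 21.4, 4.37, 17.5 and 52.2 in Khk KO. WT replicates 2 and 4 were far above the other WT libraries, and the log2 fold change of -3.19 carried an SE of 0.94. In all, 3 of the 10 members did not overlap and lay below WT, where 23.0% of genes in the jejunum table do the same and 33.0% lie wholly above. With the length trend taken out 10 of 10 members were still lower, beside 51.3% of the genes fitted. Among these was Reg3a, whose value of -0.02 had an SE of 0.21. Without WT replicate 1, edgeR called 0 members.

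**Figure D2:**
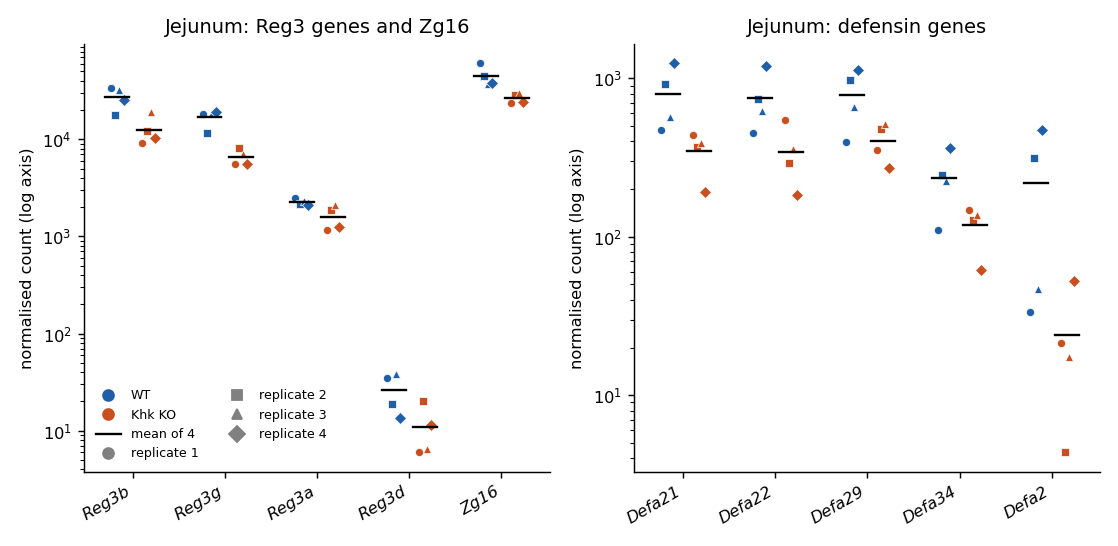
Normalised counts (log axis) in the jejunum for the Reg3 genes and Zg16 (left) and the defensin genes (right), 1 point per library, with black bars at the mean of 4. Reg3g, Zg16 and Defa21 show all Khk KO points below all WT points, and Defa2 spreads from 33.5 to 474 within WT.

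In the duodenum, 7 of 7 members were lower in Khk KO, beside 57.9% of all genes listed there, and none passed a test. EdgeR called 0 of the 6 it could fit, with 1 at an unadjusted p below 0.05, and 0.0711% of the 1406 genes fitted; DESeq2's Wald test called 0. The authors' deposited table also calls 0 members. That test called 35 genes, which is 0.224% of the 15615 adjusted over (0.0961% lower and 0.128% higher), while 1567 genes are listed. Reg1 was by far the most abundant member, with 157111, 75514, 75917 and 58674 normalised counts in WT and 44449, 78691, 63541 and 62278 in Khk KO. WT replicate 1 was above all others, and the remaining libraries of both genotypes overlapped. The log2 fold change of -0.56 ± 0.32 (edgeR adjusted p = 1) was -0.17 without WT replicate 1 and -0.03 with the length trend taken out. With that trend out, 6 of 6 fitted duodenal members were lower, beside 53.8% of the genes fitted. Among these was Reg1, whose value of -0.03 had an SE of 0.16.

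Duodenal defensins were scarce. Defa22 had 48.4, 126, 132 and 189 normalised counts in WT and 83.4, 21.8, 73.2 and 55.0 in Khk KO, with overlap through WT replicate 1 and a log2 fold change of -1.09 ± 0.48. Defa21, Defa36, Defa37 and Defa20 had log2 fold changes between -1.15 and -0.94 and overlapped likewise. With the length trend taken out, Defa22 was at -0.80 and the others lay between -0.88 and -0.69. Defa-ps1, with at most 15.8 normalised counts, was the 1 member whose genotypes did not overlap, where 26.0% of the listed genes lie wholly below WT and 20.0% wholly above. In both the duodenum and the jejunum, WT replicate 4 was the highest and WT replicate 1 the lowest WT library for each defensin coding gene, and in the ileum WT replicate 1 was instead the highest for Defa21, Defa22, Defa29, Defa34 and Defa5.

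**Figure D3:**
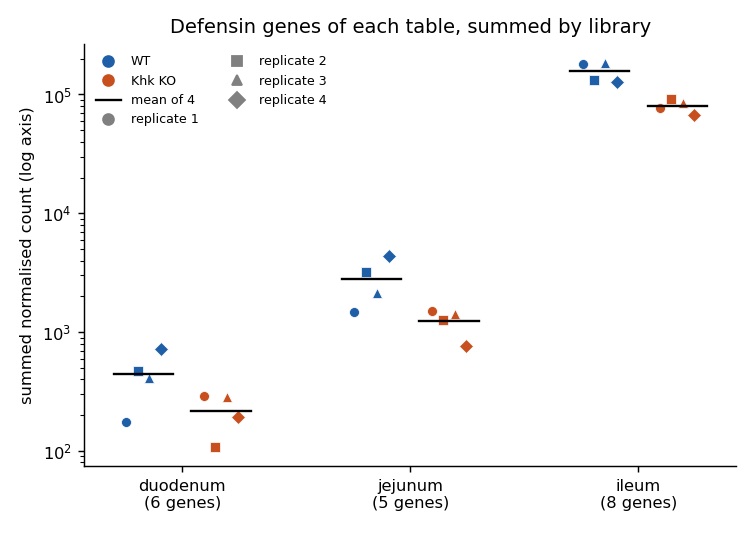
Summed normalised count (log axis) of the defensin genes listed in each segment's table, 1 point per library, with black bars at the mean of 4. The ileal sums separate by genotype, whereas in the duodenum and jejunum the lowest WT point, replicate 1, lies among the Khk KO points. Unlisted defensin genes are left out of every sum.

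Summed over the listed defensins, Khk KO averaged 49.0% of WT in the duodenum and 44.2% in the jejunum, with overlap between genotypes in both. As in the ileum, these sums cover listed genes that were all lower and leave out unlisted defensin genes. By FPKM, which is per length, Defa21 averaged 11.5 ± 5.23 in WT duodenum, 113 ± 48.8 in WT jejunum and 7153 ± 957 in WT ileum (SD, n = 4). Reg1 ran the other way, from 4943 ± 2384 in WT duodenum to 2.65 ± 0.49 in WT ileum. The tables were normalised separately, so these levels are set side by side without a test. Within the WT ileum the order by FPKM was Defa21, Defa22 (6229 ± 1159), Defa2 (2443 ± 1981), Zg16 (1558 ± 302), Defa34 (838 ± 149), Defa29 (629 ± 230), Defa37 (472 ± 143) and Defa5 (70.2 ± 17.9). Defa21 and Defa22 differed by less than their spread, and so did the neighbours Defa2 and Zg16, Defa34 and Defa29, and Defa29 and Defa37.

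Whether the genotype difference itself differed between segments was tested for genes that 2 tables share, in an edgeR interaction chosen after the data were seen. Such genes were listed for a low p-value in both segments, so genes that differed in only 1 of them were left out beforehand. The fit took libraries of different segments as independent, although the labels do not say whether they came from the same mice. Reg3d was the member furthest apart, with a log2 fold change 2.73 ± 0.81 higher in the ileum than in the jejunum (edgeR adjusted p = 0.288 over 1210 genes). For Reg1 the ileal value was 1.31 ± 0.43 above the duodenal one (edgeR adjusted p = 0.229 over 637 genes). Neither passed after adjustment, and for the defensins and Zg16 every edgeR adjusted p was above 0.99. For Defa21, ileum minus jejunum was 0.29 ± 0.40 and ileum minus duodenum 0.08 ± 0.46, intervals too wide to show equal effects.

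**Figure D4:**
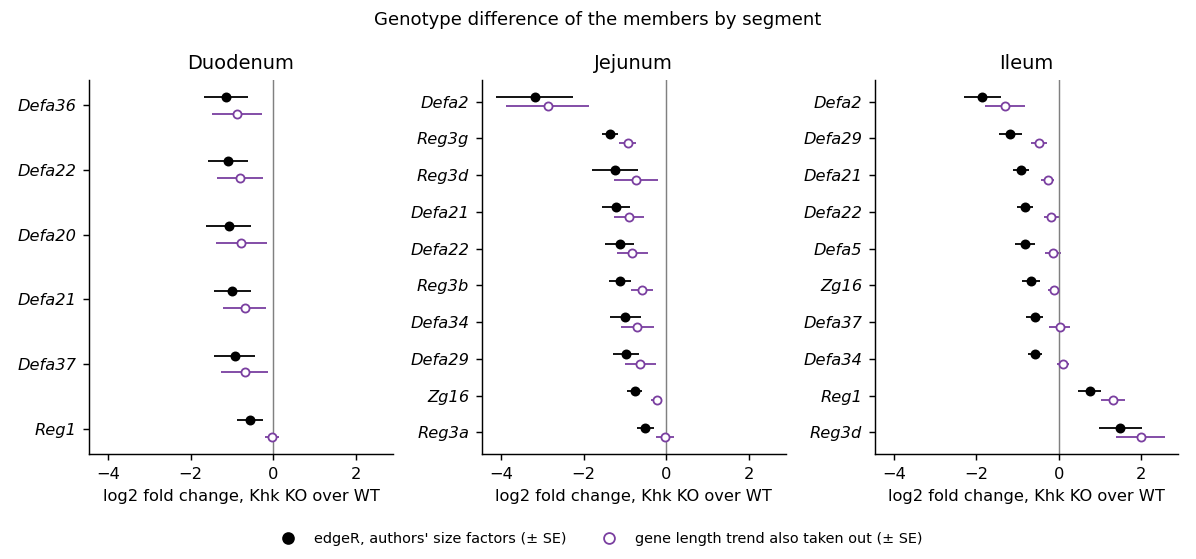
Log2 fold change (Khk KO over WT) of each fitted member by segment, with SE bars, from edgeR with the authors' size factors (filled) and with the gene length trend also taken out (open). The open points lie closer to 0 or above it for most members, and Reg1 and Reg3d in the ileum are the 2 that lie above 0 in both.

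With genotype means removed, pairwise Pearson correlations of defensin coding genes over the 8 libraries ranged from 0.43 to 0.98 in the duodenum, from 0.29 to 0.93 in the jejunum and from -0.56 to 0.81 in the ileum. The pairs share libraries, depth and in part sequence, so these values are descriptions. Defa21 with Defa22 gave 0.98, 0.93 and 0.75 in that order of segments.

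Of 30 other Paneth cell genes the ileum table holds 7, of which 6 were lower and 1 higher, beside 48.7% lower among all genes listed there. EdgeR called 0 of the 7 (6 at an unadjusted p below 0.05; DESeq2 called 2), beside 33.1% of the ileal genes fitted. Lyz1, the Paneth lysozyme, averaged 96502 ± 6330 in WT and 66284 ± 11736 in Khk KO normalised counts without overlap, and its log2 fold change was -0.54 ± 0.18 (edgeR adjusted p = 0.0744). The lectin Itln1 had -0.43 ± 0.23 and the pentraxin Mptx2 -0.38 ± 0.17, both with overlap. The defensin-related AY761184 was at -1.11 ± 0.37 (edgeR adjusted p = 0.0765) and Gm14851 at -0.54 ± 0.22, also with overlap. With the length trend taken out, Lyz1 was at -0.03, Itln1 at 0.13, Mptx2 at 0.20, AY761184 at -0.36 and Gm14851 at 0.17. The 3 listed Paneth genes in the duodenum table and the 5 in the jejunum table held 2 and 4 that were higher, among them Irgm1, an autophagy-linked GTPase, at 0.85 ± 0.17 in the jejunum (edgeR adjusted p = 0.252). In each of these 2 segments 1 listed Paneth gene was lower, beside 57.9% and 46.0% of all genes listed there. EdgeR called 0 Paneth genes in either table, beside 0.0711% and 0.0489% of the genes fitted. At an unadjusted p below 0.05 were 3 of 3 and 4 of 5, and DESeq2 called 0 and 2. Summed over the 7 ileal genes, Khk KO was at 69.9% of WT, with 121074 to 148018 against 165178 to 220895. These 7 were also listed for a low p-value, and the sum was not made with the length trend taken out.

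Over the lists of secreted defence, goblet and antimicrobial control genes, edgeR called 6 of 25 ileal genes fitted, beside 33.1% of the 4788 ileal genes fitted. Among 34 other secreted defence genes, the ileum table holds 6, and edgeR called Slpi and Pglyrp1 lower. Slpi, a secreted protease inhibitor, had a log2 fold change of -1.11 ± 0.23 (edgeR adjusted p = 0.0187) and Pglyrp1, a peptidoglycan recognition protein, -0.78 ± 0.21 (edgeR adjusted p = 0.0397). With the length trend taken out neither was called, at -0.56 and -0.25 (edgeR adjusted p = 0.350 and 0.462). Of 25 goblet cell genes, edgeR called 2 of the 9 in the ileum table, Kcnma1 and Sytl2 and both higher, with log2 fold changes of 0.86 ± 0.19 and 0.67 ± 0.17. These 2 are long genes, listed at 16976 and 13941 bases, and with the length trend taken out their values were 0.17 and 0.02. The goblet mucus peptide Tff3 was at -0.66 ± 0.22 in the ileum and -0.52 ± 0.17 in the jejunum, or 0.04 and -0.11 with the length trend taken out. Of 34 genes that control antimicrobial expression, the ileum table holds 10, and edgeR called Tlr4, the lipopolysaccharide receptor, and Rora higher at 1.22 ± 0.28 and 0.82 ± 0.19. With the length trend taken out neither was called, at 1.04 and 0.20 (edgeR adjusted p = 0.0794 and 1). In that fit edgeR called 1 ileal gene in each of these 3 lists, none of them among the genes named above as called. Socs3, a feedback target of STAT3, was at 1.01 ± 0.32 with overlap (edgeR adjusted p = 0.0681). In the duodenum and jejunum edgeR called 0 genes of these 3 lists, with 9 of 11 and 13 of 13 at an unadjusted p below 0.05, and DESeq2 called 1 in each.

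Some markers of other cell types also differed with genotype in the same libraries, and their part in the defensin and Reg3 values was not tested. All of them were listed for a low p-value. EdgeR called 8 of the 31 ileal markers fitted, beside 33.1% of the 4788 ileal genes fitted. In the ileum, edgeR called 3 of 5 listed ileal enterocyte genes lower (of 13 markers), 1 of 5 plasma cell genes lower (of 13), 2 of 6 enteroendocrine and tuft genes lower (of 17), 1 of 7 proximal enterocyte genes lower (of 15), 1 of 3 stem and cycling genes higher (of 17), 0 of 4 neutrophil and macrophage genes (of 15; 3 at an unadjusted p below 0.05 and 2 called by DESeq2) and 0 of 2 pancreas genes (of 33; 1 and 0 likewise). Enpp7, an intestinal sphingomyelinase, was at -2.17 ± 0.37 there. In the fit with the length trend removed, edgeR called 1 ileal enterocyte gene and 0 genes in each other ileal marker list. Summed plasma cell markers ran from 194214 to 254573 in WT ileum and from 107082 to 192150 in Khk KO. Crypt stem and cycling markers ran from 6072 to 8287 and from 10005 to 10585. In the jejunum, the 4 listed smooth muscle genes (of 9) summed to 9428 to 22433 in WT and 7709 to 11341 in Khk KO, and edgeR called 0 marker genes in that segment (15 of 19 at an unadjusted p below 0.05; DESeq2 called 2) and 0 in the duodenum (10 of 18; DESeq2 called 0). Of the pancreas markers, which bear on Reg1, the duodenum table lists 1, Spink1. It had 3742 to 9533 normalised counts in WT and 3042 to 4475 in Khk KO, with WT replicate 1 highest as for Reg1. The same library was also highest there for Khk and for summed proximal enterocyte, ileal enterocyte, and enteroendocrine and tuft markers. It was not highest for summed stem and cycling, plasma cell, or neutrophil and macrophage markers. Any part of pancreas tissue in the Reg1 values was not tested.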

How the data were processed

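Bulk poly(A) RNA-seq libraries of 3 intestinal segments were analysed, 4 per genotype and segment. Reads were aligned with HISAT2 2.0.5 to GRCm38 (mm10), per the submitters' processing notes; the counting tool, strand setting, annotation and test are not given in the sources used here. Each deposited table gives, per the file headers, raw read counts, normalised counts, FPKM, and the authors' log2 fold change, p-value and adjusted p-value. The normalised count is a signal that the authors made by dividing each deposited count by 1 size factor per library. The deposited FPKM values are per kilobase of listed gene length. All listed genes have an unadjusted p below 0.05.

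Counts were fitted with edgeR 4.0.16 (quasi-likelihood, filterByExpr, the authors' size factors) in R 4.3.3, each segment alone, with Benjamini-Hochberg adjustment over the 15615, 9881 and 16034 genes (duodenum, jejunum, ileum) that the authors adjusted over, as worked out from their p-values. A call is an adjusted p below 0.05. TMM was not the main scaling because the listed genes were selected. The fit was tested on simulated data. Alternatives were TMM and DESeq2 1.42.0 size factors, DESeq2's Wald test, the authors' test and no filter. Others were the length trend removed (lowess, span 0.5), the replicate number as a block, and each library left out. For the members, ratios of group means and of group medians were also compared, by direction only.

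The members and gene lists were chosen with earlier results of these data known. Named were all members, Khk, and from each list the genes of lowest deposited p (up to 6 for the lists of other Paneth, goblet, secreted defence and antimicrobial control genes, up to 3 for markers of pancreas, stem and cycling, proximal and ileal enterocyte, enteroendocrine and tuft, plasma, neutrophil and macrophage, and smooth muscle cells), plus the 5 genes most like each member with a mean of at least 100. The liver table was left out.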

Additional observations from a re-analysis of the deposited data

Results flagged for a closer look

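In 5 of 56 groups of 4 libraries, 1 library lay further from the other 3 than Dixon's 95% limit for groups of 4 allows. Chance alone would mark about 1 in 20 such groups. In WT jejunum, Reg3g in replicate 2 was low at 11726 normalised counts. In WT ileum, replicate 1 was high for Defa21 at 76774 and for Defa34 at 8554. In Khk KO ileum, replicate 2 was high for Defa2 at 7381 and for the pseudogene Defa-ps3 at 1.80, where the other 3 libraries were at 0.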

How the results depend on the processing

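Each member's log2 fold change in a segment was set against 18 alternatives. Among these comparisons 407 were the same, 29 lost the call, 28 gained one and 4 reversed. The same means the same direction and the same side of the threshold. The 18 include the ratios of group means and of group medians, which have no p-value and were compared by direction only. The reversals were Defa34 and Defa37 in the ileum, at 0.094 and 0.017 with the length trend taken out and 0.085 and 0.10 with the replicate block as well. Members called in the ileum were 4 in the fit reported, 7 with TMM, 6 with DESeq2 size factors, 9 with DESeq2's Wald test, 9 in the authors' deposited table, 5 with no filter, 1 with the length trend taken out and 0 to 5 when 1 library was left out. In the jejunum 0 became 5 with DESeq2's Wald test and 4 in the authors' deposited table, and the range on leaving out 1 library was 0 to 0, as in the duodenum, where every alternative gave 0. Listed genes called in the ileum were 6 in the fit reported, 16 with TMM, 11 with DESeq2 size factors, 21 with DESeq2's Wald test, 16 in the authors' deposited table, 3 with the length trend taken out and 0 to 14 without 1 library. In the jejunum they were 0, then 3 with the Wald test and 1 in the authors' deposited table, and in the duodenum 0, then 1 and 1. The causes of these changes were not tested.

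With the replicate number as a block, edgeR called 0 ileal members and 2 listed genes, and with the length trend also removed 0 and 3. The correlations between deviations of same-numbered WT and Khk KO libraries ran from -0.27 to 0.23 in the duodenum, 0.05 to 0.31 in the jejunum and -0.16 to -0.01 in the ileum. In the jejunum all 4 were positive, and replicates 1 and 4 correlated best with their own number. No segment had every pair above 0.1, and no label ties the numbers to a mouse or batch, so they were not treated as pairs.

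TMM and DESeq2 size factors moved the median of all duodenal genes by 0.15 and 0.17 on the log2 scale, and under 0.1 elsewhere; removing the length trend moved it by 0.19 in the duodenum and 0.16 in the jejunum. Over all ileal genes edgeR called 1585, 34.1% of them lower; with TMM it called 2346, 51.4% lower, with the length trend removed 476, 51.3% lower, and with DESeq2's Wald test 3391, 45% lower. Depth limits the scarce members: Reg3d rested on 5 to 110 reads per ileal library and Defa20 on 7 to 99 per duodenal library.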

Other observations

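The genes whose log2(normalised count + 1) followed a member most closely over the 8 libraries of a segment are given as descriptions; all candidates were listed for a genotype difference, so the correlation holds that difference too. In the jejunum, Reg3g was most like Arl1 (Pearson r = 0.976) and Zdhhc4 (0.972) among 1610 genes, Reg3b was most like Commd1 (0.984), and Zg16 most like Chid1 (0.978) and Scg2 (0.978). Defa21 in the jejunum was most like Fgfrl1 (0.970). In the ileum, among 3959 genes, Defa21 was most like Tmem86b (0.982), Defa22 most like Prss8 (0.970), Defa29 most like Hnrnpa0 (0.990), with the defensin-related AY761184 also near at 0.969, and Defa2 most like Golt1a (0.955). In the duodenum, Reg1 was most like Ndufc1 (0.998) and Prap1 (0.994) among 1026 genes.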
